A study of Mus musculus with 8 samples.

Results

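The group described here is a set of 10 genes for secreted matrix proteins: the matricellular proteins periostin (Postn), osteonectin (Sparc), its relative hevin (Sparcl1), tenascin C (Tnc), cartilage oligomeric matrix protein (Comp) and Cthrc1, the adhesive glycoprotein fibronectin (Fn1), and the small proteoglycans biglycan (Bgn), decorin (Dcn) and lumican (Lum). They were chosen by name. All 10 had rows in the table of 14578 genes, with 37 of its 33027 transcripts, and 9 were tested. Cthrc1 was not tested because it did not reach an abundance of 1 in at least 2 libraries.

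Matricellular proteins are secreted into the matrix, where they bind collagens, growth factors and integrins and change how cells attach to it. Many of them are made at low levels in the healthy adult heart and at high levels by fibroblasts after injury. Small leucine-rich proteoglycans bind collagen fibrils and set their spacing and thickness, and some also hold growth factors such as TGF-beta.

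RNA of the left ventricle was sequenced from mice of 6 months on a C57 genetic background. There were 3 libraries of mdx sln+/- mice, 3 of mdx mice and 2 of wild-type (WT) mice. Both mdx groups lack dystrophin through the mutation of Dmd, and the mdx sln+/- mice are also heterozygous for a loss of Sln, the gene for the calcium pump inhibitor sarcolipin. Whether each library is a mouse of its own is not stated in the labels, and the p-values reflect differences among these libraries, which may be technical. The ± after a change is the standard error from limma. Levels are given as log2(abundance + 1) after summing a gene's transcripts. The range of the deposited values fits this scale, which no source states. On this scale changes of low genes are understated.

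The mutated gene Dmd checked the labels of both mdx groups against WT, at 4.09 to 4.25 in mdx sln+/-, 4.22 to 4.32 in mdx and 6.60 to 6.98 in WT libraries. Dmd does not tell the mdx groups apart, and Sln itself had no row, so the mdx sln+/- label was not checked against the data. The heart muscle markers (8 of 8 measured) summed to 15.3 to 15.4 in mdx sln+/-, 15.2 to 15.4 in mdx and 15.1 in both WT libraries, and none of the 5 skeletal muscle markers had a row. A correction had been made before deposit that set the mean of mdx 2 and mdx sln+/- 2 equal to that of the other mdx and mdx sln+/- libraries, and the term behind it was fitted as a covariate. With that term, leaving out mdx 2 and leaving out mdx sln+/- 2 give the same estimates, since the term then fits the other library exactly. The pair is therefore given below as 1 setting, except where alternatives are tallied. The WT libraries stood apart from each other. The Y-linked gene Ddx3y was at 6.64 in WT 1 and 1.29 in WT 2. It was at 3.94, 4.66 and 1.76 in mdx sln+/- 1, 2 and 3 and at 6.15, 4.57 and 6.37 in mdx 1, 2 and 3. Its level thus also varied among the mdx and mdx sln+/- libraries, and the cause was not tested. Because the WT libraries stood apart, differences from WT are also given with a WT library left out.

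Tenascin C and hevin were higher in both mdx groups than in WT, and osteonectin and cartilage oligomeric matrix protein passed the test in mdx sln+/- against WT, though neither differed between mdx sln+/- and mdx by that test. In mdx against WT, 2 of the 9 tested genes rose (Sparcl1 and Tnc) and 0 fell. Of all 13783 genes tested, 15.1% passed in either direction and 8.15% were higher and 6.94% lower. In mdx sln+/- against WT, 3 rose (Sparc, Sparcl1 and Tnc) and 1 fell (Comp), beside 15.9% of all genes in either direction, 9.41% higher and 6.5% lower. Between mdx sln+/- and mdx, 0 of the 9 passed in limma, as for all 13783 genes (0%), and 0 of the 9 had an unadjusted p under 0.05, as 1186 of all genes did. With the removed term not fitted, the fit counts 1 residual degree of freedom too many. The calls were then 3 in mdx against WT, 5 in mdx sln+/- against WT and 0 in mdx sln+/- against mdx. The shares of all genes called under this and other alternative settings are not given here. Whether a changed count is particular to the 9 genes is therefore not shown. The median change of the 9 genes was 0.53 in mdx against WT, beside 0.02 over all genes. It was 0.52 in mdx sln+/- against WT beside 0.05, and 0.00 in mdx sln+/- against mdx beside 0.03. The groups did not overlap for 3 of the 9 genes in mdx against WT, all higher (all genes: 27.8% higher, 23.6% lower, 51.4% in either direction). They did not overlap for 4 higher and 2 lower in mdx sln+/- against WT (all genes: 36.4%, 23.5% and 59.8%), and for 0 higher and 1 lower in mdx sln+/- against mdx (all genes: 16.8%, 8% and 24.8%). The change was over 0 in 7 of the 9 in mdx against WT (53.1% of all genes), in 7 in mdx sln+/- against WT (57.8%) and in 5 in mdx sln+/- against mdx (60.3%). Both comparisons with WT share the same 2 WT libraries. In whole tissue, a change in the number of cells of a type and a change in the RNA of each cell cannot be told apart. Without WT 2, 0 of the 9 passed in either of them, and without mdx sln+/- 3, 0 passed in mdx sln+/- against WT.

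**Figure D1:**
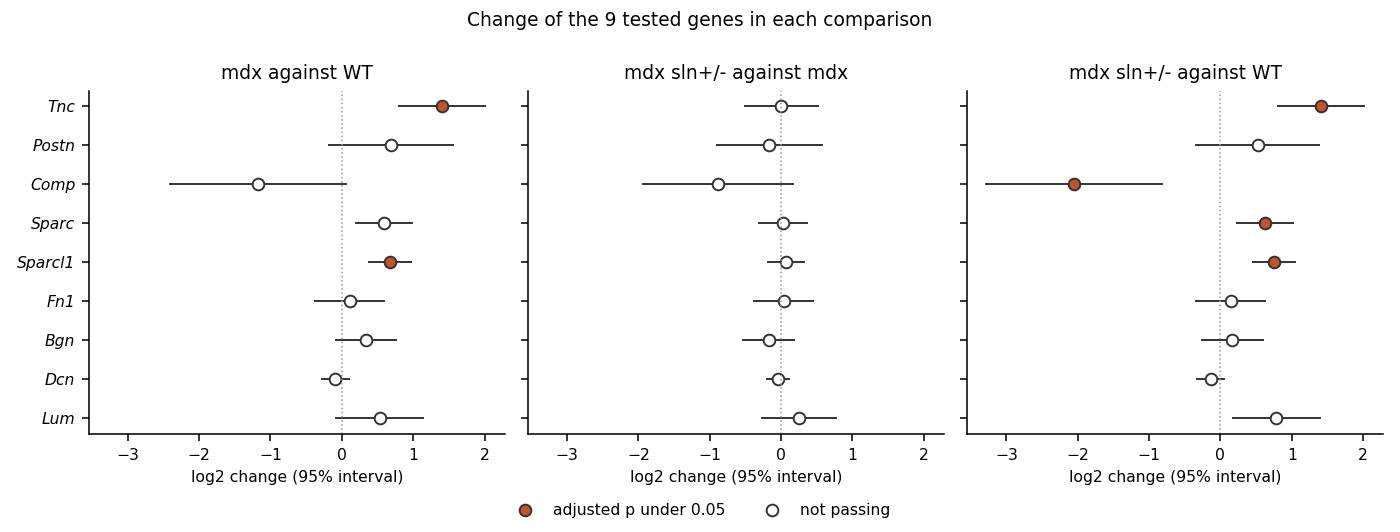
Log2 change of the 9 tested genes in the 3 comparisons, with the 95% interval before adjustment over genes. Filled points passed an adjusted p of 0.05: Sparcl1 and Tnc in mdx against WT, none in mdx sln+/- against mdx, and Sparc, Sparcl1, Tnc and Comp in mdx sln+/- against WT.

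Tenascin C is a large hexameric glycoprotein that loosens the hold of cells on fibronectin and is made at sites of injury. Tnc was at 2.92, 2.94 and 3.25 in the mdx sln+/- libraries 1, 2 and 3, at 3.42, 3.12 and 2.56 in mdx 1, 2 and 3, and at 1.74 and 1.51 in WT 1 and 2. Every library of both mdx groups lay above both WT libraries, and the mdx libraries spread more widely than the mdx sln+/- ones. Tnc rose by 1.41 ± 0.26 in mdx against WT (2.65-fold, limma, adjusted p = 0.0161) and by 1.41 ± 0.26 in mdx sln+/- against WT (2.66-fold, adjusted p = 0.0152). Between mdx sln+/- and mdx it differed by 0.00 ± 0.22, with an interval of -0.51 to 0.52. Without WT 2 both changes missed the threshold (1.29 with adjusted p = 0.0847 in mdx, 1.30 with adjusted p = 0.0814 in mdx sln+/-). The change in mdx sln+/- also missed it without mdx sln+/- 1 (adjusted p = 0.0596) and mdx sln+/- 3 (0.0641).

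The table holds 3 coding transcripts of Tnc (chr4:63959785-64047015, minus strand, GRCm38, GENCODE M21), which differ by 1 coding exon and by where they begin. Tnc-203 has 26 exons and alone holds a coding exon of 273 bases, which is 91 codons, at chr4:63984460-63984732. Tnc-201 has 25 exons and skips it. Tnc-204 has the same coding exons as Tnc-201 and begins 26290 bases upstream. The exon is shown in capitals between 12 bases of each neighbouring exon, beside the 24 bases that Tnc-201 and Tnc-204 have at the same place, because Tnc-201, without it, passed against WT and Tnc-203, with it, did not.
Tnc-203 with the exon: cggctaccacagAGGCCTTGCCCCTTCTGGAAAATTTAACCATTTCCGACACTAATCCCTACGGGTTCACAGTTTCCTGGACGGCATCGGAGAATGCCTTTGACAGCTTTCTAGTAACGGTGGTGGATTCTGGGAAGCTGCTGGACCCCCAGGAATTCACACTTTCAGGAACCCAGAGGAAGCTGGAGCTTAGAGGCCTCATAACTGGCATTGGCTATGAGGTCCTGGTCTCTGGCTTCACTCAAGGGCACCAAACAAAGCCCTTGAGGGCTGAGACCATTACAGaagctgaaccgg
Tnc-201 without the exon: cggctaccacagaagctgaaccgg

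Tnc-201, the short form, was at 2.13, 2.21 and 2.53 in mdx sln+/-, at 2.66, 2.16 and 1.42 in mdx and at 0.30 and 0.36 in WT libraries. These WT values (abundances of 0.23 and 0.29) lie near the floor of the scale, like those of Cthrc1. Unlike genes, transcripts were not filtered by level. In a fit over all 33027 transcripts, Tnc-201 rose by 1.75 ± 0.34 in mdx (adjusted p = 0.0271) and by 1.96 ± 0.34 in mdx sln+/- (adjusted p = 0.0171) against WT. Of all transcripts 7.25% passed in mdx against WT (3.62% higher, 3.63% lower) and 8.86% in mdx sln+/- against WT (4.6% and 4.26%). Of the 37 member transcripts 2 passed in mdx (Tnc-201 and the main Sparcl1 transcript) and 4 in mdx sln+/- (these, Dcn-202 and the Comp transcript). Tnc-203, which holds the exon, was at 1.10, 0.78 and 1.26 in mdx sln+/-, at 1.03, 1.74 and 1.66 in mdx and at 0.95 and 0.85 in WT libraries, and did not pass in mdx (0.58, adjusted p = 0.197) or mdx sln+/- (0.15, adjusted p = 0.741). Tnc-204 did not pass either (0.58, adjusted p = 0.263, and 0.72, adjusted p = 0.166). The call of Tnc-201 in mdx ended without WT 1 (adjusted p = 0.0767), WT 2 (0.0983), mdx 1 (0.0583), mdx sln+/- 1 (0.0546) or the pair mdx 2 and mdx sln+/- 2 (0.0507) and with the naming style of the libraries in the labels as a term (0.0535). In mdx sln+/- it ended without WT 1 (0.0534), WT 2 (0.0721), mdx sln+/- 1 (0.0740) or mdx sln+/- 3 (0.0744).

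As a share of the 3 coding transcripts, Tnc-201 made up 51.5%, 54.3% and 56.2% in mdx sln+/-, 55.0%, 45.3% and 34.2% in mdx and 9.77% and 15.5% in WT libraries. The mdx groups did not overlap WT. The WT shares are of a summed Tnc abundance of only 2.35 in WT 1 and 1.85 in WT 2. The share of Tnc-203 was 17.5%, 10.8% and 16.4% in mdx sln+/-, 10.7%, 30.6% and 44.1% in mdx and 39.7% and 43.2% in WT libraries, so mdx overlapped WT and mdx sln+/- did not. An exact two-sided permutation test over libraries gave p = 0.1 for Tnc-201 in each comparison with WT, the smallest these group sizes allow (0.1), so no share can pass 0.05 here. Transcripts that share nearly all exons also share reads. The levels and shares of these transcripts, and of those of Postn, Fn1 and Dcn below, rest on how the authors' software divided such reads. Tnc overlaps 8030451A03Rik on the other strand, and whether strand was used in counting is not given in the sources used here.

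The promoter of the upstream start of Tnc, which Tnc-204 uses, and that of the Sparc-201 start are shown. They were chosen because both genes passed in mdx sln+/- against WT. Tnc-204 itself did not pass, and Tnc-201, which did, starts 26290 bases downstream. Sparc-202, the main transcript of Sparc, starts 182 bases downstream of Sparc-201, outside the window shown. Each window runs from 250 bases before to 50 after a RefSeq start (GRCm38.p6), and of the 10 genes Postn, Tnc, Sparc and Bgn have such windows. The motifs searched on both strands were the SMAD box CAGAC, the AP-1 site TGANTCA, the TEAD site GGAATG and the TATA box TATAAA, and capitals mark every match on either strand. None of these matches overlap each other in the 2 windows.
Tnc, chr4:64046966-64047265, minus strand: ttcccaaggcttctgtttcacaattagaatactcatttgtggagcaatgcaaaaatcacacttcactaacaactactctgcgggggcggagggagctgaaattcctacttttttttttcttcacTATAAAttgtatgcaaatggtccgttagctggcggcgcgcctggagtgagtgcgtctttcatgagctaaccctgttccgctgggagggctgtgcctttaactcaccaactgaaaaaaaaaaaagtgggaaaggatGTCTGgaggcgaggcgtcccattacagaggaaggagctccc
Sparc, chr11:55420031-55420330, minus strand: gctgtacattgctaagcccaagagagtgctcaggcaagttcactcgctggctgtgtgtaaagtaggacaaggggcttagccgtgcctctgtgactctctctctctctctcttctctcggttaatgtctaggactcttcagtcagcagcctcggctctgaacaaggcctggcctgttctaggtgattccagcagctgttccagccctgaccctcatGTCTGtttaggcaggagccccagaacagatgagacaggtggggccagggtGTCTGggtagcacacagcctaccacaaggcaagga
The Tnc window holds 1 SMAD box and 1 TATA box, and the Sparc window holds 2 SMAD boxes. Of all 32851 promoter windows 49.6% hold the SMAD box, 7.81% the AP-1 site, 14.7% the TEAD site and 13.6% the TATA box. Such matches are short runs of letters and were not tested for binding.

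Osteonectin and hevin are related collagen-binding proteins, and osteonectin takes part in the handling of procollagen outside fibroblasts. Sparc was at 8.56, 8.89 and 8.55 in mdx sln+/-, at 8.82, 8.41 and 8.68 in mdx and at 8.18 and 7.92 in WT libraries. Sparcl1 was at 8.39, 8.66 and 8.59 in mdx sln+/-, at 8.65, 8.37 and 8.42 in mdx and at 7.88 and 7.72 in WT libraries. For both genes every library of both mdx groups lay above both WT libraries. Sparcl1 rose by 0.68 ± 0.13 in mdx (1.599-fold, adjusted p = 0.0165) and by 0.75 ± 0.13 in mdx sln+/- (1.68-fold, adjusted p = 0.0116) against WT. Sparc differed by 0.59 ± 0.17 in mdx against WT, just short of the threshold (1.51-fold, adjusted p = 0.0556), and rose by 0.62 ± 0.17 in mdx sln+/- against WT (1.54-fold, adjusted p = 0.0474). Between mdx sln+/- and mdx, Sparc differed by 0.03 (interval -0.31 to 0.37) and Sparcl1 by 0.07 (interval -0.18 to 0.32).

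Leaving out libraries moved these calls. The call of Sparcl1 ended without WT 2 in mdx (0.59, adjusted p = 0.0859) and without WT 2 (adjusted p = 0.0647) or mdx sln+/- 3 (0.0551) in mdx sln+/-. The call of Sparc in mdx sln+/- ended without WT 1 (adjusted p = 0.0666), WT 2 (0.205), mdx 1 (0.0504), mdx 3 (0.0708), mdx sln+/- 1 (0.118) or mdx sln+/- 3 (0.0903), and with name style as a term (0.0830). In mdx against WT, Sparc passed without the pair mdx 2 and mdx sln+/- 2 (0.70, adjusted p = 0.0164) and with the removed term not fitted (0.024). With median-ratio scaling, Sparc in mdx sln+/- was at 0.56 (adjusted p = 0.0661). Of the 9 tested genes, Sparc and Sparcl1 had the most similar profiles across the 8 libraries, with a root mean square difference of 0.11 on the log2 scale after centring each gene on its mean. Sparcl1 (chr5:104079111-104113733, minus strand) was nearly all 1 transcript, at 98.9% to 99.7% of the gene in the 8 libraries. It overlaps Gm26703 on the other strand. Sparc (chr11:55394500-55423183, minus strand) overlaps no other annotated gene, and Sparc-202 made up 89.5% to 90.7% of its 2 coding transcripts.

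**Figure D2:**
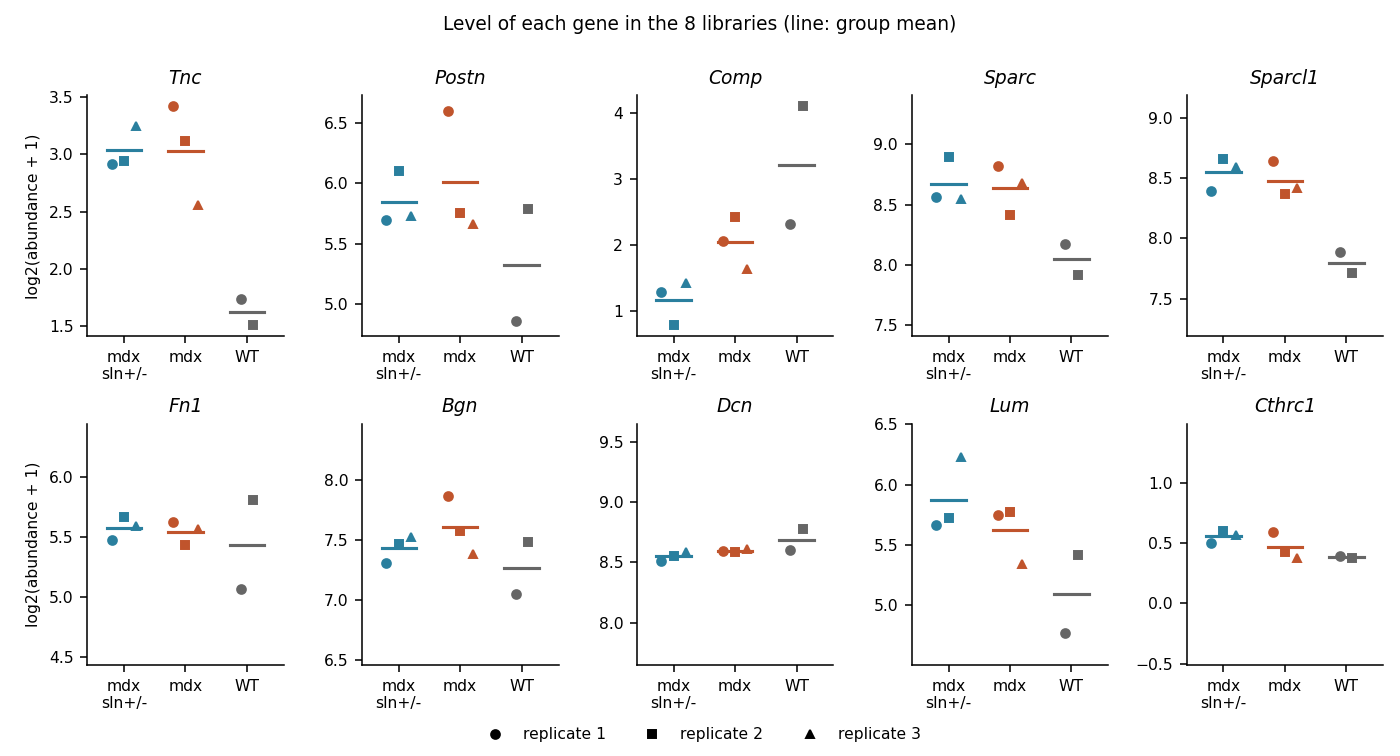
Level of the 10 genes, as log2(abundance + 1), in each library of the mdx sln+/-, mdx and WT groups. Symbols give the replicate number, lines the group mean, and each panel has its own range of at least 2 units. Tnc, Sparc and Sparcl1 lie higher in all mdx and mdx sln+/- libraries than in WT, while WT 2 stands above WT 1 for Comp, Postn, Fn1, Lum and Bgn.

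Periostin, which links collagen and integrins and is the best known product of activated cardiac fibroblasts, did not pass. Postn was at 5.69, 6.10 and 5.73 in mdx sln+/-, at 6.60, 5.75 and 5.66 in mdx and at 4.85 and 5.78 in WT libraries. WT 1 was the lowest of the 8 libraries, and WT 2 lay within both mdx groups. The difference was 0.69 ± 0.37 in mdx against WT (adjusted p = 0.243) and 0.52 ± 0.37 in mdx sln+/- against WT (adjusted p = 0.357). Without WT 2 the differences were 1.15 in mdx and 0.98 in mdx sln+/-, and without WT 1 they were 0.22 and 0.06, none of them called. Between mdx sln+/- and mdx the difference was -0.17 (interval -0.90 to 0.57).

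Periostin transcripts differ by short coding exons near the end of the protein. Of the 4 long coding transcripts, Postn-202 holds both an exon of 81 bases (chr3:54380412-54380492) and one of 84 bases (chr3:54385671-54385754, plus strand). Postn-203 holds the 81-base exon alone, Postn-201 the 84-base exon alone, and Postn-204 neither. Both exons are whole numbers of codons (27 and 28), so skipping them keeps the reading frame. They are shown in capitals between 12 bases of each neighbouring exon, with the joined bases of Postn-204, because Postn-204 gave the largest change among the 4.
Postn-203 with the 81-base exon: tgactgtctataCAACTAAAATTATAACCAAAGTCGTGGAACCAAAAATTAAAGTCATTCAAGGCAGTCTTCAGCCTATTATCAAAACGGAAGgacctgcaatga
Postn-204 without it: tgactgtctatagacctgcaatga
Postn-201 with the 84-base exon: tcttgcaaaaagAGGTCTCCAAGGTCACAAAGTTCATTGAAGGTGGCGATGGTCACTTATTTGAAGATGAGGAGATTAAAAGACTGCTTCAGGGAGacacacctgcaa
Postn-204 without it: tcttgcaaaaagacacacctgcaa

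Postn-204 was at 4.44, 4.77 and 4.46 in mdx sln+/-, at 5.39, 4.47 and 4.19 in mdx and at 3.41 and 3.77 in WT libraries, and the mdx groups did not overlap WT. Its difference was 1.09 ± 0.34 in mdx (adjusted p = 0.0897) and 0.97 in mdx sln+/- (adjusted p = 0.112) against WT, and it did not pass. It passed in mdx with the removed term not fitted (adjusted p = 0.0436) or with the replicate block (1.24, adjusted p = 0.0488), and in mdx sln+/- without mdx 1 (0.87, adjusted p = 0.0160). The other long transcripts differed by 0.41 (Postn-201), 0.19 (Postn-202) and 0.27 (Postn-203) in mdx against WT. Postn-204 made up 45.7%, 44.4% and 44.9% of the 4 in mdx sln+/-, 47.3%, 44.0% and 39.7% in mdx and 37.5% and 25.2% in WT libraries. Transcripts with the 84-base exon made up 28.04%, 26.9% and 26.1% of the 4 in mdx sln+/-, 31.0%, 33.0% and 33.6% in mdx and 36.1% and 40.0% in WT libraries. The 3 groups did not overlap in this share, which is 1 of 9 shares computed. How often transcript shares do not overlap was not worked out. In gene levels 51.4% of all genes did not overlap in mdx against WT, 24.8% in mdx sln+/- against mdx and 59.8% in mdx sln+/- against WT. The exact two-sided permutation p was 0.1 for the 84-base exon in each of the 3 comparisons, the smallest possible. Postn-202 had the lowest level of the 4, 0.93 to 2.10 over the 8 libraries.

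Cartilage oligomeric matrix protein, a thrombospondin family member that binds collagen and is best known from cartilage and tendon, was lower in mdx sln+/- than in WT and did not pass in mdx. Comp was at 1.28, 0.77 and 1.42 in mdx sln+/-, at 2.06, 2.43 and 1.63 in mdx and at 2.31 and 4.10 in WT libraries. The mdx sln+/- libraries lay below all mdx and WT libraries, mdx overlapped WT 1, and WT 2 was far above the rest. Comp fell by 2.05 ± 0.53 in mdx sln+/- against WT (4.14-fold lower, adjusted p = 0.0409) and differed by -1.17 ± 0.53 in mdx against WT (adjusted p = 0.171). Between mdx sln+/- and mdx the difference was -0.88 ± 0.45 (interval -1.93 to 0.17, adjusted p = 0.617), and the groups did not overlap, as for 24.8% of all genes in either direction and 8% of all genes in this one. The size rested on WT 2: without it the change was -1.15 in mdx sln+/- (adjusted p = 0.127) and -0.28 in mdx (adjusted p = 0.688). Without WT 1 it was -2.94 and -2.06, and both passed (adjusted p = 0.0124 and 0.0275). The call in mdx sln+/- also ended without any 1 of the mdx or mdx sln+/- libraries (adjusted p = 0.0576 without mdx 3 to 0.124 without mdx sln+/- 1) and with name style as a term (0.0599). Comp (chr8:70373558-70382066, plus strand) has 1 transcript in the table, with 19 exons. Of the valve, tendon and cartilage markers, 3 of 6 had rows, 2 were tested, and Sox9 was at 1.51 on average in mdx and 0.87 in WT libraries (0.64 ± 0.12, adjusted p = 0.0168, and not called without WT 2), while Tnmd, Col2a1 and Chad had no row.

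Cthrc1, a secreted protein of injured vessels and of activated fibroblasts, was at 0.50, 0.60 and 0.57 in mdx sln+/-, at 0.59, 0.42 and 0.38 in mdx and at 0.39 and 0.38 in WT libraries. These values lie near the floor of the scale, where no comparison was made.

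Fibronectin, the adhesive glycoprotein that cells bind through integrins, did not pass in the main fit. Of 24 alternatives, Fn1 passed, higher, in 1 in mdx against WT and in 0 in mdx sln+/- against WT. Fn1 was at 5.48, 5.67 and 5.59 in mdx sln+/-, at 5.63, 5.43 and 5.56 in mdx and at 5.07 and 5.81 in WT libraries, so the WT libraries enclosed all others. It differed by 0.11 ± 0.21 in mdx (adjusted p = 0.748) and by 0.15 ± 0.21 in mdx sln+/- (adjusted p = 0.652) against WT, with intervals of -0.37 to 0.59 and -0.34 to 0.63. The direction rested on the WT libraries: without WT 1 the difference was -0.26 in mdx and -0.22 in mdx sln+/-, and without WT 2 it was 0.48 and 0.52. Fn1 (chr1:71585520-71653200, minus strand) overlaps Apol7d on the other strand.

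The extra domain A exon of fibronectin is a classic mark of injured and embryonic tissue. It has 270 bases, 90 codons, at chr1:71603660-71603929, and 4 of the 7 long coding transcripts in the table hold it. It is shown because its share is a known injury readout of this gene, with the exon in capitals and 12 bases of each neighbour.
With the extra domain A exon: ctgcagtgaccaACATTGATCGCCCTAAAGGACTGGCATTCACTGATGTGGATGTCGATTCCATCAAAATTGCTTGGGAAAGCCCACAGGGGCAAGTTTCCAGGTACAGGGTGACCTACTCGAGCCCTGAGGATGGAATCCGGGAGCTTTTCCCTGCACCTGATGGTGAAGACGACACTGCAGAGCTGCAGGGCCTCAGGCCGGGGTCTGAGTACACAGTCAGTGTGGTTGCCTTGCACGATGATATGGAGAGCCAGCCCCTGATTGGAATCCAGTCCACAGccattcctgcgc
Without the exon: ctgcagtgaccaccattcctgcgc

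Shares of the extra domains were taken of the summed abundance of the 7 long coding transcripts, not of the whole gene. Transcripts with extra domain A made up 36.6%, 47.2% and 37.8% in mdx sln+/-, 48.2%, 38.0% and 48.2% in mdx and 37.9% and 34.2% in WT libraries. The mdx libraries lay above WT, though mdx 2 (37.99%) only just exceeded WT 1 (37.93%), and mdx sln+/- overlapped both. The exact two-sided permutation p was 0.2 in mdx against WT and 0.6 in mdx sln+/- against WT. Extra domain B, held by 1 of the 7, made up 5.81%, 8.40% and 7.46% in mdx sln+/-, 5.84%, 4.19% and 5.33% in mdx and 4.27% and 3.69% in WT libraries, with an exact permutation p of 0.2 in mdx sln+/- against WT. Among the 9 Fn1 transcripts, 0 passed in any comparison. A partial transcript of 17 exons, annotated as a retained intron, made up 27.1%, 27.7% and 26.7% of the gene in mdx sln+/-, 30.2%, 24.3% and 19.9% in mdx and 13.0% and 17.0% in WT libraries. It spans the position of the extra domain A exon and is left out of the extra domain shares.

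**Figure D3:**
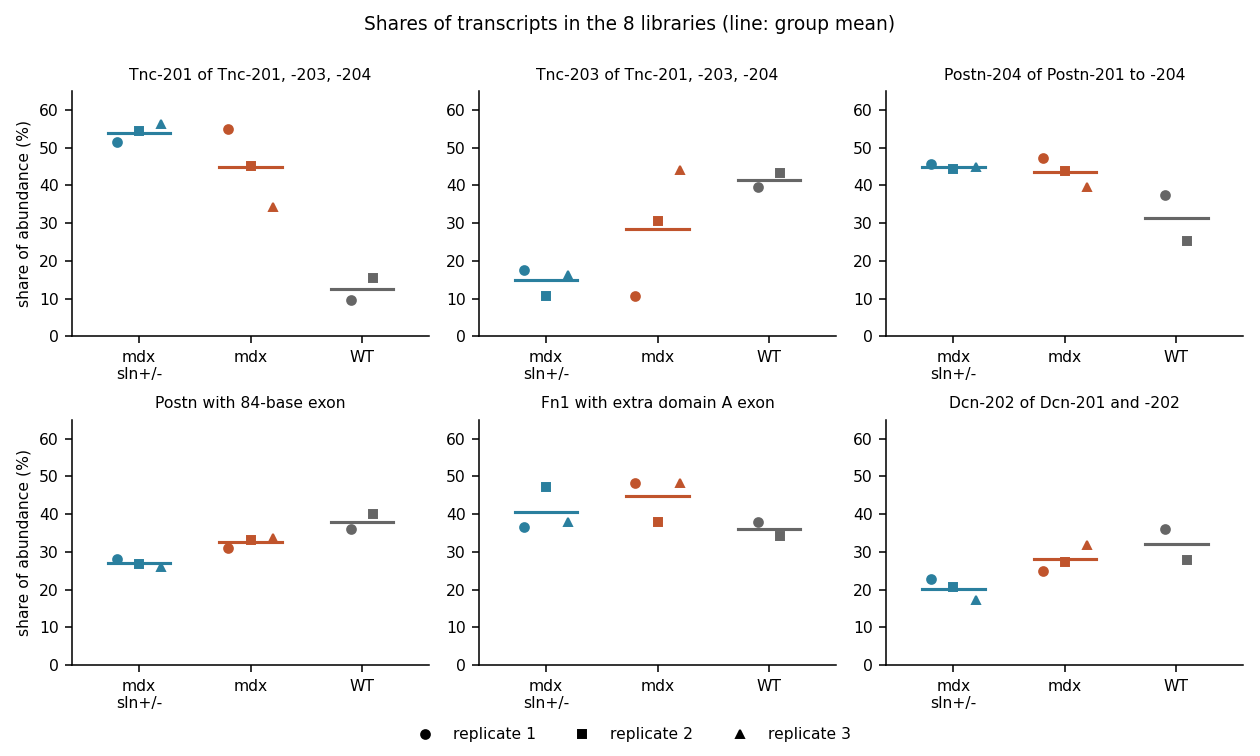
Shares of named transcripts, in percent of the summed abundance of the coding transcripts compared, in each library of the mdx sln+/-, mdx and WT groups (symbols: replicate number, lines: group mean). Tnc-201 lies at 34.2% to 56.2% in the mdx and mdx sln+/- libraries and at 9.77% and 15.5% in WT, and Dcn-202 is lowest in mdx sln+/-.

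Of the small proteoglycans, none passed as a gene in the main fit. Biglycan carries up to a pair of chondroitin or dermatan sulphate chains and decorin a single one. Bgn (chrX:73483602-73495933, plus strand) was at 7.30, 7.47 and 7.53 in mdx sln+/-, at 7.87, 7.57 and 7.39 in mdx and at 7.05 and 7.48 in WT libraries. The groups overlapped, with differences of 0.34 ± 0.18 in mdx (adjusted p = 0.234) and 0.17 ± 0.18 in mdx sln+/- (adjusted p = 0.548) against WT. Without WT 2 the differences of Bgn were 0.56 in mdx and 0.38 in mdx sln+/-, and without WT 1 they were 0.13 and -0.05, so the sign in mdx sln+/- rested on WT 1. Lumican, which carries keratan sulphate, had Lum at 5.67, 5.73 and 6.23 in mdx sln+/-, at 5.75, 5.77 and 5.34 in mdx and at 4.77 and 5.42 in WT libraries. All mdx sln+/- libraries lay above WT, while mdx 3 fell between the WT libraries. The differences were 0.53 ± 0.26 in mdx (adjusted p = 0.205) and 0.78 ± 0.26 in mdx sln+/- (1.72-fold, adjusted p = 0.0815), and with the removed term not fitted the one in mdx sln+/- passed (adjusted p = 0.0412). Of 24 alternatives, Lum passed in 1 in mdx against WT and in 2, this one among them, in mdx sln+/- against WT. Without WT 2 the differences of Lum were 0.85 in mdx and 1.10 in mdx sln+/-, and without WT 1 they were 0.21 and 0.46, none of them called.

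Decorin was the steadiest of the 9. Dcn was at 8.51, 8.55 and 8.59 in mdx sln+/-, at 8.59, 8.59 and 8.61 in mdx and at 8.60 and 8.78 in WT libraries, and the mdx sln+/- libraries all lay just below WT. The differences from WT were -0.09 ± 0.08 in mdx (interval -0.28 to 0.09) and -0.14 ± 0.08 in mdx sln+/- (interval -0.32 to 0.05, adjusted p = 0.266). Without WT 1 they were -0.18 and -0.23, and without WT 2 -0.000375 and -0.05. Dcn (chr10:97479609-97518143) and Lum (chr10:97565128-97572703) lie on the same strand with 46984 bases between them.

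The 2 coding transcripts of Dcn gave different results, which rest on how the authors' software divided the reads of their 7 shared exons. Dcn-201 and Dcn-202 each have 8 exons, 1758 bases and the same coding exons, and differ only in the first, non-coding exon, whose starts lie 2758 bases apart. Dcn-202, from the downstream start, was at 6.34, 6.25 and 6.02 in mdx sln+/-, at 6.56, 6.67 and 6.92 in mdx and at 7.09 and 6.90 in WT libraries. The mdx sln+/- libraries were the lowest and overlapped neither other group. Dcn-202 fell by 0.79 ± 0.15 in mdx sln+/- against WT (adjusted p = 0.0204 over all transcripts), and its difference was -0.28 ± 0.15 in mdx against WT (adjusted p = 0.275) and -0.51 ± 0.12 in mdx sln+/- against mdx (adjusted p = 0.425). Dcn-201 was at 8.09, 8.17 and 8.26 in mdx sln+/-, at 8.13, 8.08 and 8.003 in mdx and at 7.91 and 8.26 in WT libraries, with a difference of 0.09 in mdx sln+/- against WT (adjusted p = 0.683). Dcn-202 made up 22.8%, 20.8% and 17.3% of the pair in mdx sln+/-, 24.9%, 27.2% and 32.0% in mdx and 36.1% and 27.9% in WT libraries. The exact two-sided permutation p for this share was 0.1 in mdx sln+/- against mdx and against WT, the smallest possible, and 0.4 in mdx against WT. The call of Dcn-202 ended without WT 1 (adjusted p = 0.0682), WT 2 (0.0598), mdx sln+/- 1 (0.0681) or mdx sln+/- 3 (0.0833), with the change at -0.66 to -0.89.

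The WT libraries differed from each other most in Comp, Postn, Fn1, Lum and Bgn. WT 2 exceeded WT 1 by 1.79 for Comp, 0.93 for Postn, 0.74 for Fn1, 0.64 for Lum and 0.43 for Bgn, where the median size over all genes was 0.14. These sizes lie at the 99.8th, 98.8th, 97.3rd, 96.0th and 89.6th percentile of all genes. For Sparc, Sparcl1 and Tnc WT 2 was below WT 1, by 0.26, 0.17 and 0.23. The fibroblast markers (10 of 10 measured) summed to 10.3 to 10.4 in mdx sln+/-, 10.2 to 10.4 in mdx, and 9.999 and 10.7 in WT 1 and WT 2. The activated fibroblast markers (7 of 7) summed to 6.63 to 7.18 in mdx sln+/-, 6.91 to 7.53 in mdx, and 6.83 and 7.69 in WT 1 and WT 2. The part of cell content in the members' levels was not tested.

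Among other markers, those of macrophages had 3 of 10 higher and 0 lower in each comparison with WT, and their sum was 8.18 to 8.40 in mdx sln+/-, 8.14 to 8.45 in mdx and 7.78 to 7.81 in WT libraries. The share over all genes was 15.1% in mdx against WT and 15.9% in mdx sln+/- against WT. The counts of the fibroblast, activated fibroblast and smooth muscle lists lie no higher than that. Of 10 fibroblast markers 1 passed in each comparison with WT (Lamb1, a laminin chain, higher by 0.63 ± 0.09 in mdx and 0.72 ± 0.09 in mdx sln+/-). Of 7 activated fibroblast markers 1 passed in mdx (Meox1, 0.74 ± 0.20) and 0 in mdx sln+/-. Without WT 2, 1 macrophage marker and 1 fibroblast marker passed in each comparison. Endothelium had 2 of 8 higher and smooth muscle and pericytes 1 of 8 in each, cardiomyocytes and blood had 0 of 8 and 0 of 5, and the 1 mesothelial marker tested did not pass. Their part in the results for Tnc, Sparc and Sparcl1 was not tested either.

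Most of the collagen genes whose products these proteins bind were higher in both mdx groups than in WT. Of 11 collagen genes 8 were higher and 0 lower in mdx against WT, and 7 and 0 in mdx sln+/- against WT, with median changes of 0.87 and 0.86. The shares of all genes that were higher in these comparisons were 8.15% and 9.41%. Without WT 1 the median changes of the collagen genes were 0.80 and 0.77. Col6a3, of the beaded collagen VI that decorin and biglycan bind, rose by 1.43 ± 0.17 in mdx and 1.49 ± 0.17 in mdx sln+/-. Col5a3, of a collagen within fibrils, rose by 1.38 ± 0.15 and 1.13 ± 0.15. Without WT 2 the counts were 3 and 4, and without WT 2 and mdx sln+/- 3 both were 0, while the medians were 0.94 and 0.92, and 0.94 and 0.90.

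The other matricellular genes went both ways. Of 24 tested, 2 were higher and 4 lower in mdx against WT, and 3 and 4 in mdx sln+/- against WT. Over all genes 8.15% were higher and 6.94% lower in mdx, and 9.41% and 6.5% in mdx sln+/-. The median change of the 24 in mdx was 0.10, 0.32 without WT 2 and -0.09 without WT 1. In mdx sln+/- it was 0.08, 0.18 without WT 2 and -0.18 without WT 1. Thbs2, thrombospondin 2, which limits vessel growth, fell by 1.04 ± 0.09 in mdx and by 0.82 ± 0.09 in mdx sln+/-. Spock2, a proteoglycan of the osteonectin family, fell by 1.76 ± 0.22 and by 1.75 ± 0.22. The other calls in mdx were Nov (-1.01) and Smoc1 (-1.24), lower, and Wisp2 (0.87) and Cyr61 (1.41), higher, named after their values were seen. Without WT 2, 0 were higher and 2 lower in mdx.

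Of 7 other small leucine-rich proteoglycans 1 passed in each comparison with WT, Ecm2, higher by 0.46 ± 0.12 in mdx and 0.50 ± 0.12 in mdx sln+/-. This count is near the share over all genes (15.1% in mdx and 15.9% in mdx sln+/-) and is no result about the list. The median of this list was -0.24 in mdx against WT, 0.34 without WT 2 and -0.54 without WT 1. In mdx sln+/- against WT it was -0.04, 0.23 without WT 2 and -0.31 without WT 1, so its sign rested on the WT library used. Of 7 large proteoglycans and linkers 3 were higher in mdx (Agrn, Cspg4 and Hspg2) and 1 in mdx sln+/- (Agrn). Agrin (Agrn), which binds dystroglycan, rose by 0.74 ± 0.14 and 0.67 ± 0.14, and the pericyte proteoglycan Cspg4 by 0.58 ± 0.15 in mdx. Without WT 2, 0 of the 7 passed in either comparison.

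Among 25 receptors and coreceptors 2 were higher and 1 lower in mdx against WT, and 3 and 1 in mdx sln+/- against WT. Over all genes 15.1% and 15.9% passed in these comparisons, and the shares of this list (3 and 4 of 25) lie near those, so the counts are no result about the receptors as a group. Met, the receptor of hepatocyte growth factor, which decorin can bind, fell by 1.63 ± 0.13 in mdx and by 1.76 ± 0.13 in mdx sln+/-. Itga5, the alpha chain of the main fibronectin receptor, rose by 0.59 ± 0.10 in mdx and 0.40 ± 0.10 in mdx sln+/-. Itgb6, an integrin chain that binds fibronectin and tenascin C, rose by 1.74 ± 0.30 in mdx sln+/- and 1.78 ± 0.30 in mdx. Without WT 2, 1 was higher and 1 lower in each.

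Of 24 genes that build glycosaminoglycan chains 1 was higher and 1 lower in mdx, and 2 and 2 in mdx sln+/-, which is likewise no more than near the share over all genes. Chst3, which sulphates chondroitin, fell by 0.56 ± 0.11 in mdx and by 0.79 ± 0.11 in mdx sln+/-, and Chst14, which sulphates dermatan, rose by 0.46 ± 0.10 in mdx. Csgalnact2, which starts and lengthens chondroitin chains, fell by 0.33 ± 0.07 in mdx sln+/-. Of 16 genes of processing and growth factors 5 were higher and 1 lower in mdx, and 3 and 1 in mdx sln+/-, beside 15.1% and 15.9% of all genes. Pcolce, which speeds procollagen cleavage, rose by 0.91 ± 0.13 and 0.76 ± 0.13, Tgfb1 by 0.75 ± 0.15 in mdx, and the procollagen protease Bmp1 by 0.46 ± 0.10 in mdx sln+/-. Without WT 2, 2 of the 16 were higher and 1 lower in each comparison, and of the 24 chain genes 0 passed in mdx and 1 (lower) in mdx sln+/-. In mdx sln+/- against mdx, 0 genes of any of these 7 lists or of the marker lists passed.

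**Figure D4:**
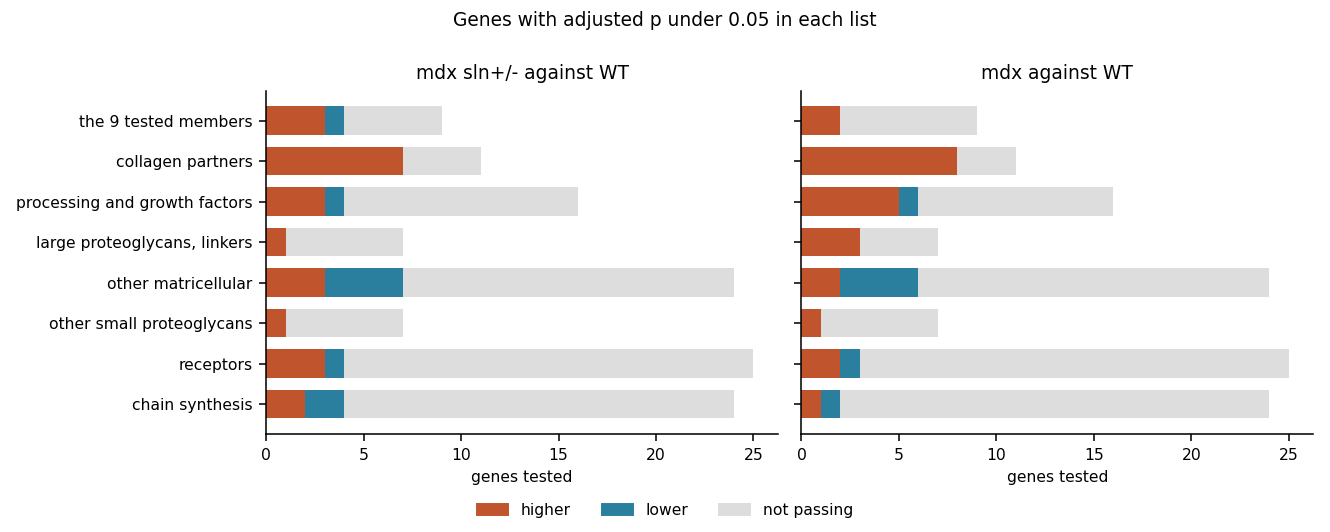
Number of tested genes in each list that were higher, lower or not passing (adjusted p of 0.05 over all genes) in mdx sln+/- against WT and in mdx against WT. Collagen partners hold the most calls for their size (7 and 8 of 11), and other matricellular genes have calls in both directions. Over all genes 15.9% passed in mdx sln+/- against WT and 15.1% in mdx against WT.

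Genes whose profile across the 8 libraries was nearest to a member were sought among 11715 genes, by the root mean square difference of log2 levels centred on each gene's mean. Sparcl1 was nearest to Mrc2, a collagen uptake receptor (0.05), and Pltp (0.07), Sparc to Sh3tc2 (0.06) and Tmsb4x (0.07), and Tnc to Neurl3 (0.12) and the chemokine receptor Ccr2 (0.14). Comp was nearest to Cdo1 and to fibromodulin, Fmod (both 0.32), another collagen-binding proteoglycan. Postn was nearest to the complement proteases C1s1 (0.16) and C1ra (0.19), and Lum to Clec3b and Anpep (both 0.14). The nearest to Bgn were S100a6 and Rcn3 (both 0.08), to Fn1 Kcnn3 (0.07) and Ift140 (0.08), and to Dcn Mex3c and Med12 (both 0.02).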

How the data were processed

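Left-ventricle RNA of 8 libraries was measured by paired-end sequencing. STAR 2.6.1, Partek, limma and the build mm10 are named in the submitters' processing notes. Per the file headers, the authors gave each library 2 columns per transcript, r1 and r2. The range of the deposited values fits log2 of a normalized abundance plus 1, which no source states, and whether they were divided by length is not given in the sources used here. No counts were used, so depth and its precision are unknown. The r1 and r2 columns, whose meaning is not given, correlated at 0.981 to 0.987 and were averaged to 1 replicate.

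Values were turned to linear scale, summed per gene and expressed as log2(value + 1). A gene was tested where 2 or more libraries reached a value of 1 (13783), and 795 were left out. All 8 libraries entered 1 limma fit (3.58.1, R 4.3.3) with group and the removed term, Benjamini-Hochberg adjustment over all genes and a threshold of 0.05. In every transcript mdx 2 and mdx sln+/- 2 had the same mean as the other mdx and mdx sln+/- libraries, to within 5.12e-05. The same fit was run over all transcripts, and 9 shares of transcripts were compared by exact permutation. Both were chosen after seeing the data. A test of transcript use within genes was also tried and is not used. On simulated data the fit recovered the changed genes in the right direction, with few false calls. Whether it does so for changes as small as those of Sparc and Sparcl1, or where the WT libraries stand apart, was not tested.

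The members, lists, markers, motifs and tests were chosen with earlier results of these data known. By the rule for named genes, all members are named, and in each list the 2 genes that rank first by adjusted p, where they passed. The alternatives were other terms, scalings, pseudocounts and filters, r1 or r2 alone, the top transcript alone, and leaving out libraries. Positions, exons and exon sequences are from GENCODE M21 (GRCm38), and promoters are from RefSeq. Planned protein sequences were not used here. Figures were drawn with Python 3.11.15 and matplotlib 3.10.9.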

Additional observations from a re-analysis of the deposited data

How the results depend on the processing

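In mdx against WT, the number of the 9 genes called ran over 0 to 3 with 1 library left out in turn and was 0 without WT 2 and mdx sln+/- 3. In mdx sln+/- against WT, it ran over 0 to 3 with 1 library left out, was 0 without WT 2 and mdx sln+/- 3, 2 with name style as a term, and 1 with the removed term not fitted and those 2 libraries left out, a setting added after seeing the data. In mdx sln+/- against mdx it was 0 under all settings. No call turned direction under any alternative (up to 24 per result). Leaving out mdx 2 and leaving out mdx sln+/- 2 are 1 setting, since the fitted term absorbs the other. Leaving out a WT library leaves 1, which is then assumed to vary like the other groups, and the cause of the lost calls was not tested. With the replicate block the counts were 2 in mdx against WT, 4 in mdx sln+/- against WT and 0 in mdx sln+/- against mdx. The shares of all genes called under these settings are not given here. The replicate numbers share only a number: same-numbered libraries correlated at -0.996 (mdx 2 and mdx sln+/- 2, set by the correction before deposit) to 0.18. The single-gene changes kept their side of the threshold in 200 of 215 cases in mdx against WT, 215 of 215 in mdx sln+/- against mdx and 179 of 215 in mdx sln+/- against WT. These cases, like the 24 alternatives, count leaving out mdx 2 and leaving out mdx sln+/- 2 separately. They also include the setting added after seeing the data. With no depth given, low levels such as those of Cthrc1 and the Tnc transcripts cannot be given a counting error.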
